A study of Mus musculus with 15 samples.

Results

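The 10 genes of the germline and of meiosis were measured across mouse embryonic stem (ES) cells that lack Nat1 and in which a kinase was switched on. They are Dazl, Ddx4, Mael, Sycp1, Sycp2, Sycp3, Stra8, Hormad1, Stk31 and Tex101, which are known as genes that promoter DNA methylation keeps silent outside the germline. Members were taken as the non-control probes whose accession maps to 1 of these 10 symbols, and all 10 symbols were found among the 21368 gene symbols on the array, on 12 probes. Nat1 in the sample names is the translation factor gene whose current symbol is Eif4g2. The 15 single-colour arrays fall into 5 groups of 3. The first is Nat1-null cells carrying a tetracycline-inducible Map3k3 transgene, grown with doxycycline (Dox). The second is Nat1-null cells carrying an inducible EGFP transgene, also with Dox, and the third is the Map3k3 line without Dox. The last groups are Nat1-null cells with no transgene and wild-type cells, so every group other than the wild type lacks Nat1. Map3k3 is a kinase that acts above the MAP kinases, and EGFP is a fluorescent protein that served as the control transgene. Cells were grown in standard ES medium on gelatin, with no Dox dose or time given. The labels do not say whether the 3 samples of a group came from separate cultures or how many clones each line represents, so every p-value rests on sample-to-sample spread that may be technical.

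Germ cells and somatic cells share 1 genome, and a set of germline genes with CpG-rich promoters is shut in somatic lineages by methylation of the promoter and by a Polycomb complex that holds E2f6, Mga, Max, Pcgf6 and L3mbtl2 and reads E2F and E-box motifs. In ES cells this silencing is incomplete, and several of these genes are transcribed at low level. Entry into meiosis is triggered by retinoic acid through Stra8, after which chromosomes build an axis of Sycp2, Sycp3 and Hormad1 and are zipped together by Sycp1. Methylation itself was not measured here, so the name of the gene group rests on what is known of the genes.

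The promoters of 5 members are shown because their genes moved in different ways between the groups. Each sequence is the 250 bases before 1 start of the gene in the RefSeq table, on build GRCm38.p6, read 5′ to 3′ on the strand of the gene, with every CpG in capitals. The Ddx4 window is chr13:112652311-112652560 on the minus strand and the Mael window is chr1:166238745-166238994 on the minus strand. The Stra8 window is chr6:34920698-34920947 on the plus strand. The Hormad1 window is chr3:95559427-95559676 on the plus strand, and the Tex101 window is chr7:24672051-24672300 on the minus strand. The starts used for Mael, Hormad1 and Tex101 are the outer ends of the genes as RefSeq spans them. Those used for Stra8 and Ddx4 lie 785 and 323 bases inside the span, so a farther start is annotated whose upstream bases are not shown and not counted.
Ddx4: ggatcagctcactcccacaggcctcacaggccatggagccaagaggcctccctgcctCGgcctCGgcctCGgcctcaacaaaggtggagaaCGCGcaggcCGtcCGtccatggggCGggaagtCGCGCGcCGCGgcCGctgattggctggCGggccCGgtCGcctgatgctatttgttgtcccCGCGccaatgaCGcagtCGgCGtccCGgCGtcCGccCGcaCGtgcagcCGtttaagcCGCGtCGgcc
Mael: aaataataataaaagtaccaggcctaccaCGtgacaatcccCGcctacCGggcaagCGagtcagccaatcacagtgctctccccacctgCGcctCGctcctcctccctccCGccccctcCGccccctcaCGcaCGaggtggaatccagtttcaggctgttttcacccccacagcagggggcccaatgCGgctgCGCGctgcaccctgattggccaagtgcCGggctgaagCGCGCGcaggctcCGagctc
Stra8: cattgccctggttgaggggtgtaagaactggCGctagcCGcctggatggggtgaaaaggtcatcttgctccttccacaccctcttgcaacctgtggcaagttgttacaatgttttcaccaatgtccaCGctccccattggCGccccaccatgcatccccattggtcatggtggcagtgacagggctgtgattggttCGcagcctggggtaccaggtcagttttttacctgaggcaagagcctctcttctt
Hormad1: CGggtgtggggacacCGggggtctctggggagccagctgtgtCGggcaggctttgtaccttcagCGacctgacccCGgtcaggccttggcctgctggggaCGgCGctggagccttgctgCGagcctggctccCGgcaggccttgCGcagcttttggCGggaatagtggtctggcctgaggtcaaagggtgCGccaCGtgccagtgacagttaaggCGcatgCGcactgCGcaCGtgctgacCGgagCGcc
Tex101: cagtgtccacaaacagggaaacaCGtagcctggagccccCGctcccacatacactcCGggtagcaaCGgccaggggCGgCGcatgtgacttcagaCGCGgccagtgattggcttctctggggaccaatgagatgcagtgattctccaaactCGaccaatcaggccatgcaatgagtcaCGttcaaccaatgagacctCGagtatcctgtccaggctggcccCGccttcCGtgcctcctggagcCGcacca

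The capitals are dense in Ddx4, with 31 CpGs, and sparse in Stra8, with 5. Mael had 18 CpGs, Hormad1 had 19 and Tex101 had 14. Of the other members, Dazl had 20, Sycp1 had 17, Sycp3 had 12 and Sycp2 had 7, and the 2 starts of Stk31 had 21 and 26; the starts of Sycp2 and Stk31 lie 118, 33 and 98 bases inside their genes. The median over all 32851 RefSeq mouse promoters was 6, and 9 of the 10 members lay above it. In all, 3 motifs were searched on both strands of the same 250 bases. The E2F6 core, TCCCGC, was found in 4 of the 10 genes (Ddx4, Mael, Sycp3 and Hormad1) and in 16.9% of all promoters. The E-box CACGTG was found in 6 of the 10 genes (Ddx4, Mael, Sycp1, Sycp3, Hormad1 and Stk31) and in 6.02% of all promoters. The retinoic acid repeat core AGGTCA was found in 3 of the 10 genes (Sycp3, Stra8 with 2 matches, and Hormad1) and in 14.0% of all promoters. The first and second of these motifs each contain a CpG and so match more often where CpGs are dense. A match is a stretch of letters and not a measured binding site.

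**Figure D1:**
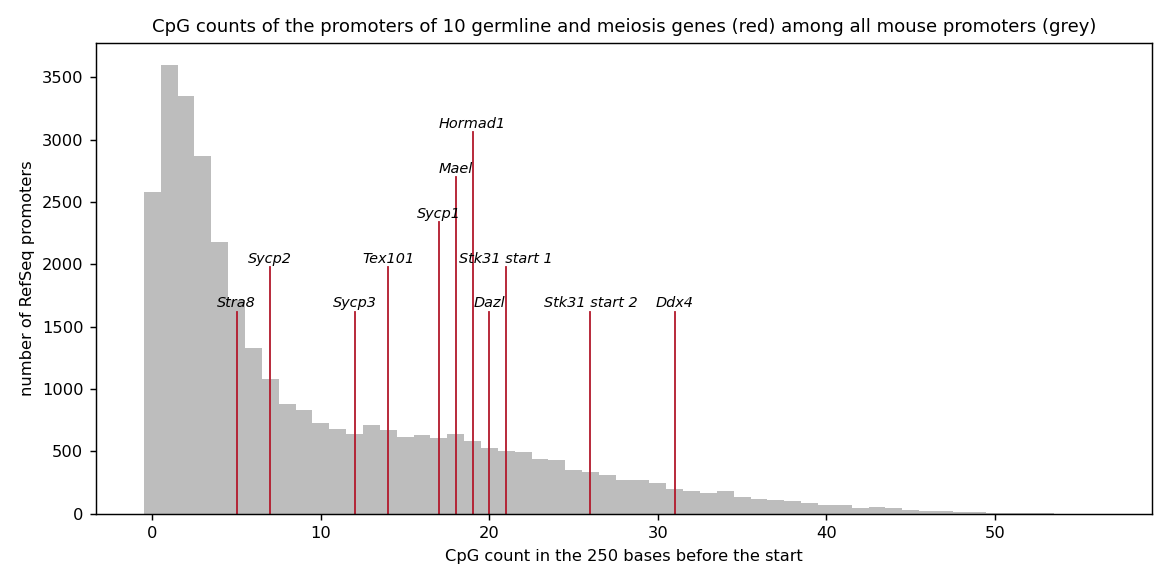
Number of RefSeq mouse promoters (y axis) by the count of CpGs in the 250 bases before the start (x axis), with the counts of the 10 germline and meiosis genes marked in red. Stra8 sits at 5, below the median of 6 over all promoters, and Ddx4 at 31 is the member farthest to the right.

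Signals are given as log2 of the processed intensity minus the 75th percentile of the array, so 0 is a signal at that percentile and each unit is a doubling. Levels of different probes are not set against each other, and since RNA was pooled from many cells, fewer expressing cells and less RNA per cell cannot be told apart. Between groups, a gene was called, and is said to have risen or fallen, when limma gave a Benjamini-Hochberg adjusted p under 0.05 over all 14443 genes tested and the difference was at least 1.5-fold. The Eif4g2 probe averaged between 1.56 and 1.71 in the 4 Nat1-null groups, against 4.31 ± 0.15 in wild-type cells (SD, n = 3), so the genotype labels fit the arrays. The Map3k3 probe averaged -0.50 ± 0.16 in Map3k3 cells with Dox and -0.69 ± 0.21 without Dox (SD, n = 3 each) and was not called; whether this probe reads the transgene is not known. The second array of Map3k3 cells with Dox had 42.7% of its probes well above background, against 47.1% to 53.9% on the other 14 arrays, and its dimmest probe read 12.7 units, against 4.33 to 7.57. All 10 markers of ES cells were well above background on all 3 arrays of every group. Of these, 6 rose in Nat1-null against wild-type cells, and 4 fell in Map3k3 cells with Dox against no Dox and 3 against EGFP; their part in the results was not tested. Of 10 spermatid and sperm markers, between 0 and 3 were well above background on all 3 arrays of a group, and of 8 spermatogonial markers 4 or 5 were.

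Of the 10 members, 9 cleared the background filter, which asks for all 3 arrays of some group, and were tested. Sycp2, a component of the chromosome axis, was not well above background on any of the 15 arrays. Tex101 passed the background filter through the wild-type arrays alone, so it had to differ from them, and counts against wild-type cells are also given without it. The other 8 were well above background on all 15 arrays.

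**Figure D2:**
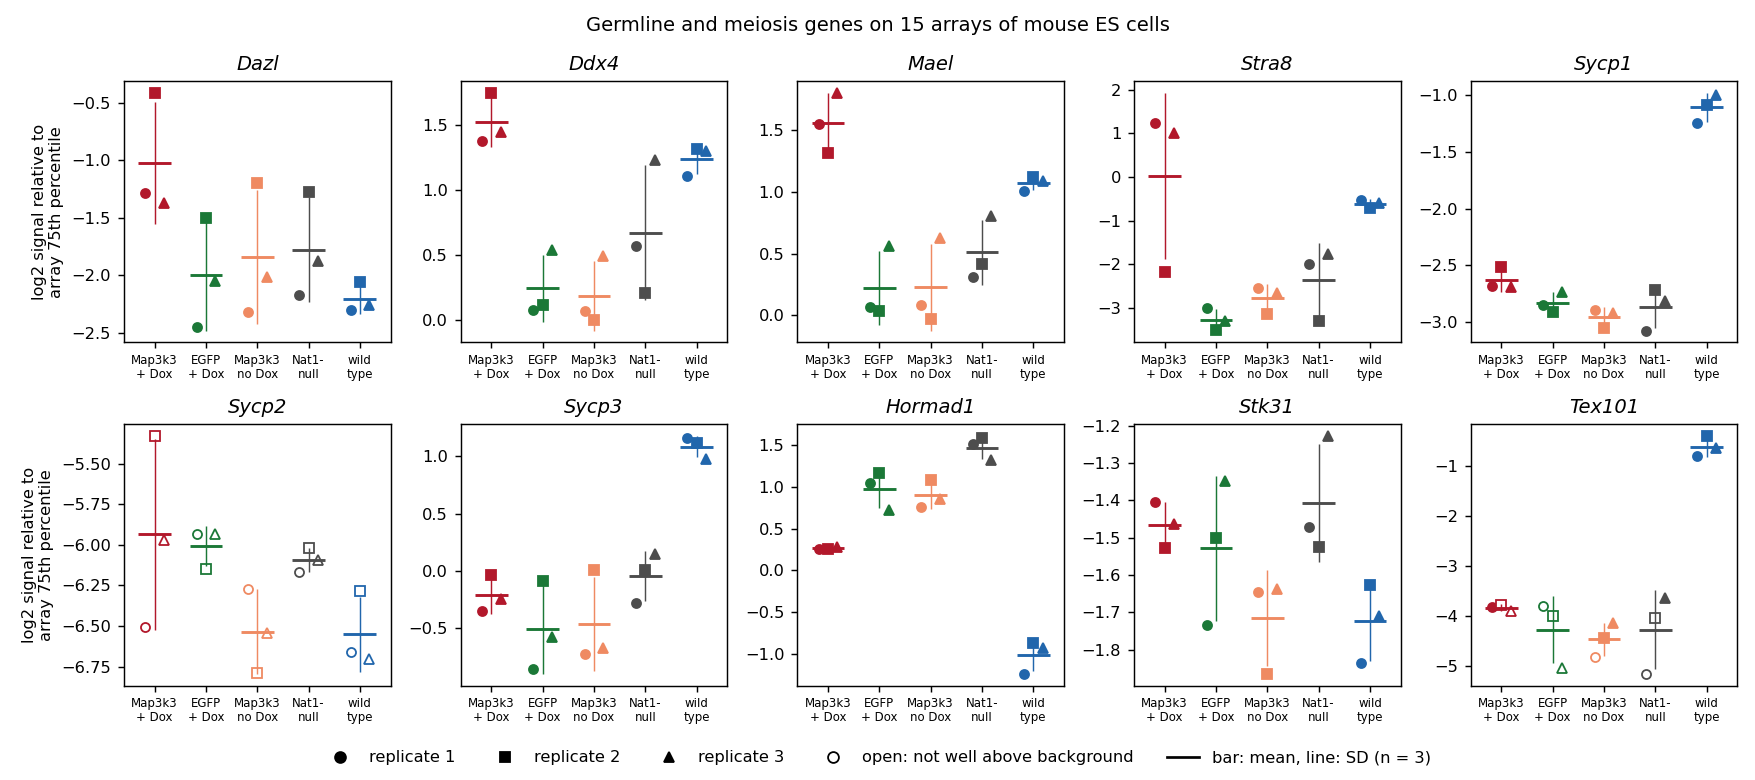
Signal of the 10 germline and meiosis genes on each of the 15 arrays (y axes, log2 relative to the array's 75th percentile, each panel with its own range), by group. Symbols mark the replicate number, open symbols are not well above background, and bars and lines are the mean and SD of 3 arrays. Wild-type arrays stand above all others for Sycp1, Sycp3 and Tex101 and below all others for Hormad1, and Ddx4 and Mael are highest in Map3k3 cells with Dox.

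Loss of Nat1 was addressed by setting Nat1-null cells against wild-type cells. Hormad1, a protein of the meiotic chromosome axis, rose 5.61-fold in Nat1-null cells. Sycp1 fell 3.40-fold, Sycp3 fell 2.18-fold, Stra8 fell 3.34-fold and Tex101 fell at least 9.55-fold. In all, 5 of the 9 members tested were called, where 37.8% of all genes tested were called in this comparison, with 17.3% of all genes higher and 20.5% lower. Without Tex101 it was 4 of 8. Arrays of both groups did not overlap for 7 of the 9 members, and for 6 of 8 without Tex101, where that held for 71.9% of all genes. The germline RNA regulators Dazl, Ddx4 and Mael and the kinase-like gene Stk31 were not called.

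Expression of Map3k3 in Nat1-null cells was addressed against the same line without Dox and against EGFP cells with Dox. Ddx4 and Mael rose about alike, by 2.52-fold each against no Dox, and Stra8 rose 6.96-fold. Hormad1 fell 1.55-fold. Thus 4 of the 9 members were called against no Dox, where 17.9% of all genes were called (12.3% higher and 5.59% lower). Against EGFP cells Ddx4, Mael, Stra8 and Hormad1 again passed with unchanged sign, together with Dazl, which rose 1.97-fold, making 5 of 9 where 18.1% of all genes were called (12.4% higher and 5.67% lower). Arrays did not overlap for 7 of 9 members against no Dox and for 6 of 9 against EGFP, where that held for 50.1% and 49.3% of all genes. Both comparisons use the same 3 arrays of Map3k3 cells with Dox. Sycp1, Sycp3, Stk31 and Tex101 were called in neither of them.

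Against wild-type cells, Map3k3 cells with Dox differed in 5 of the 9 members, where 38.3% of all genes were called (18.4% higher and 19.9% lower), and in 4 of 8 without Tex101. Dazl rose 2.28-fold and Hormad1 rose 2.43-fold. Sycp1 fell 2.88-fold, Sycp3 fell 2.45-fold and Tex101 fell at least 9.22-fold. Ddx4, Mael and Stra8 were not called, with log2 differences of 0.28 ± 0.23, 0.48 ± 0.20 and 0.63 ± 0.71 (SE). Mael was called there with the slide as a block (1.00, adjusted p = 0.0333), with the slide row as a block (0.65, adjusted p = 0.0403) and without the second Map3k3 array (0.60, adjusted p = 0.0338). Arrays did not overlap for 8 of 9 members, and for 7 of 8 without Tex101, where that held for 70.7% of all genes. This comparison shares its wild-type arrays with that of Nat1-null cells and its Map3k3 arrays with the others. Its groups were on different slides, so group and slide cannot be told apart within them.

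**Figure D3:**
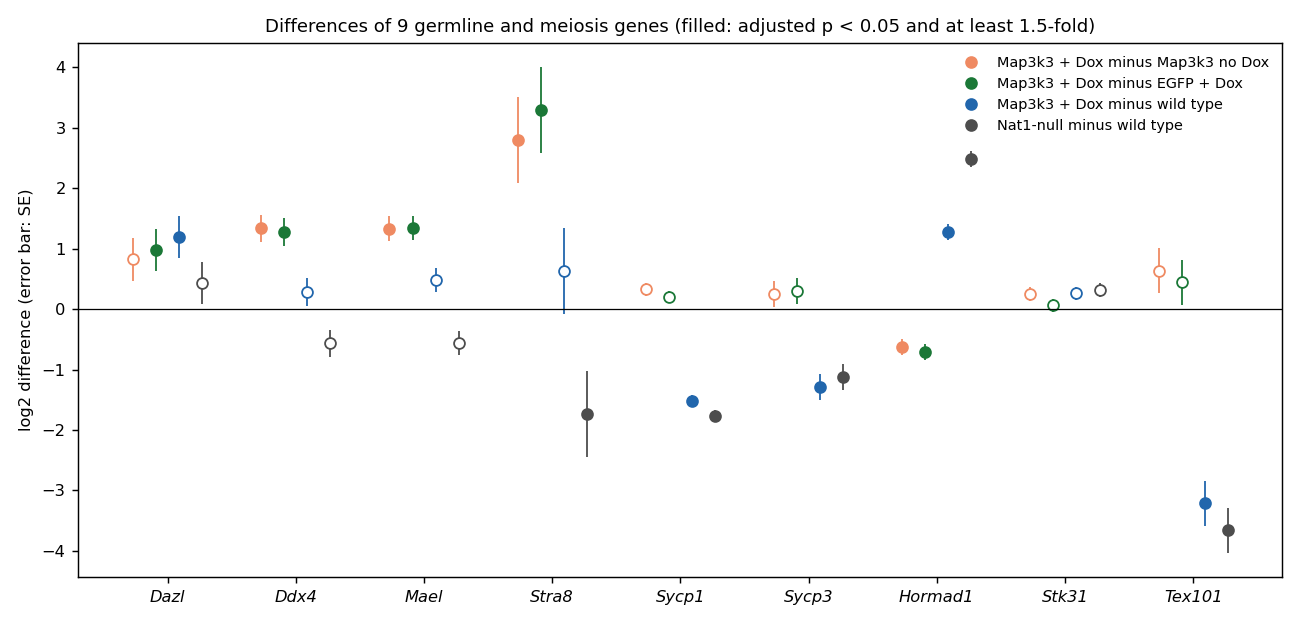
Log2 differences of the 9 tested germline and meiosis genes in 4 comparisons (y axis), with standard errors. Filled points passed an adjusted p of 0.05 and a 1.5-fold minimum. Ddx4, Mael and Stra8 lie above 0 in Map3k3 cells with Dox against both Nat1-null controls, Hormad1 lies below 0 there and above 0 against wild-type cells, and the points of Tex101 rest on Nat1-null signals that are mostly not well above background.

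The transgenic control lines were also set against Nat1-null cells with no transgene. Arrays of the Map3k3 line without Dox and of Nat1-null cells were on different slides, so line and slide cannot be told apart there. By limma, 0 of the 9 members were called in EGFP cells with Dox against Nat1-null cells, where 0.00692% of all genes were called, and 1 member had an unadjusted p under 0.05. Likewise 0 of 9 were called in the Map3k3 line without Dox against Nat1-null cells, where 0% of all genes were called, and 2 members had an unadjusted p under 0.05. With the replicate number as a block, 0.0138% and 0.277% of all genes were called in these comparisons and again 0 of 9 members. Hormad1 was that member in both comparisons, with log2 differences of -0.49 ± 0.13 in EGFP cells (SE, adjusted p = 0.381) and -0.57 ± 0.13 in the Map3k3 line without Dox (SE, adjusted p = 0.131). The other was Stk31 in the Map3k3 line without Dox, at -0.31 ± 0.11 (SE, adjusted p = 0.262).

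Among the germline RNA regulators, Ddx4 encodes the vasa helicase of germ granules. Its signal was 1.38, 1.75 and 1.45 in Map3k3 cells with Dox, 0.08, 0.12 and 0.54 on the EGFP arrays, and 0.07, 0.00 and 0.50 in the Map3k3 line without Dox. It was 0.57, 0.21 and 1.23 in Nat1-null cells and 1.11, 1.31 and 1.30 in wild-type cells. All 3 arrays of Map3k3 cells with Dox were above every array of the other 4 groups, and Nat1-null cells overlapped wild-type cells. The difference was 1.33 ± 0.23 against no Dox (SE, adjusted p = 7.64e-04, limma) and 1.28 ± 0.23 against EGFP (SE, adjusted p = 9.64e-04). In Nat1-null against wild-type cells it was -0.57 ± 0.23 (SE, adjusted p = 0.0477), a 1.48-fold difference that missed the fold minimum. Without the third Nat1-null array, the highest of that group, the difference was -0.85 and the gene was called (adjusted p = 0.00265).

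Mael encodes Maelstrom, which acts with piRNAs in silencing transposons. Its signal was 1.55, 1.32 and 1.80 in Map3k3 cells with Dox, 0.06, 0.03 and 0.56 on the EGFP arrays, and 0.08, -0.03 and 0.62 in the Map3k3 line without Dox. Nat1-null cells had 0.31, 0.41 and 0.81 and wild-type cells had 1.01, 1.12 and 1.09. Here the Map3k3 cells with Dox lay above wild-type cells and wild-type cells above Nat1-null cells, with no overlap between these groups. Mael rose by 1.33 ± 0.20 against no Dox (SE, adjusted p = 2.81e-04, limma) and by 1.34 ± 0.20 against EGFP (SE, adjusted p = 2.56e-04). The difference between Nat1-null and wild-type cells was -0.57 ± 0.20 (SE, adjusted p = 0.0269), again 1.48-fold, and was called without the third Nat1-null array (-0.71, adjusted p = 0.0130) and without the first wild-type array (-0.60, adjusted p = 0.0473). The log2 differences of Ddx4 and Mael in these 3 comparisons were thus within 1 SE of each other.

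Dazl encodes an RNA-binding protein needed for germ cell development. Its signal was -1.29, -0.41 and -1.37 in Map3k3 cells with Dox, -2.46, -1.50 and -2.05 on the EGFP arrays, and -2.32, -1.19 and -2.02 in the Map3k3 line without Dox. It was -2.18, -1.28 and -1.88 in Nat1-null cells and -2.31, -2.06 and -2.26 in wild-type cells. The second array was the highest in all 5 groups, and the second array without Dox overlapped the Map3k3 cells with Dox. Dazl differed by 0.82 ± 0.35 against no Dox (SE, adjusted p = 0.0814, limma) and was not called. With the replicate number as a block the same difference had an adjusted p of 0.00160 and was called, making 5 of 9 members where 19.3% of all genes were called with that block. Against EGFP it rose by 0.98 ± 0.35 (SE, adjusted p = 0.0414), and against wild-type cells by 1.19 ± 0.35 (SE, adjusted p = 0.0107). The call against EGFP was lost when any of 4 single arrays was left out, with the adjusted p at 0.0504 without the first and 0.156 without the second Map3k3 array, and 0.148 without the first and 0.0922 without the third EGFP array. The call against wild-type cells was lost with the slide as a block (1.11, adjusted p = 0.211) and with the slide row as a block (1.03, adjusted p = 0.0688).

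Stra8 is induced by retinoic acid and starts the meiotic programme. Its signal was 1.24, -2.17 and 1.00 in Map3k3 cells with Dox, -3.01, -3.49 and -3.31 on the EGFP arrays, and -2.53, -3.14 and -2.66 in the Map3k3 line without Dox. Nat1-null cells had -1.98, -3.31 and -1.76, and wild-type cells had -0.52, -0.71 and -0.60. The second array was the lowest in all 5 groups, and in Map3k3 cells with Dox it stood more than 3 log2 units under the other arrays of its group. It was still above all arrays of EGFP cells and of the line without Dox. Stra8 rose by 2.80 ± 0.71 against no Dox (SE, adjusted p = 0.00835, limma) and by 3.30 ± 0.71 against EGFP (SE, adjusted p = 0.00308). Without the second array of Map3k3 cells with Dox, the differences were 3.90 and 4.39 (adjusted p = 1.84e-05 and 7.19e-06), and the difference from wild-type cells was 1.73 and called (adjusted p = 0.00195). In a fit of the 2 groups alone, the difference from no Dox had an adjusted p of 0.0692. Between Nat1-null and wild-type cells the difference was -1.74 ± 0.71 (SE, adjusted p = 0.0494), at the edge of the threshold. That call was lost when the first or second Nat1-null array or any 1 of the 3 wild-type arrays was left out. With the slide row as a block, the rows being different for Nat1-null and wild-type arrays of 1 slide, the difference was -0.85 (adjusted p = 0.518).

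Of the chromosome axis and synaptonemal complex, Sycp1 encodes the filament that joins paired chromosomes. It had -2.69, -2.52 and -2.69 in Map3k3 cells with Dox, -2.85, -2.91 and -2.73 on the EGFP arrays, and -2.90, -3.06 and -2.92 in the Map3k3 line without Dox. Nat1-null cells had -3.08, -2.72 and -2.82, and wild-type cells had -1.25, -1.08 and -0.99. Every wild-type array was more than 1 log2 unit above every array that lacks Nat1. Sycp1 fell by 1.77 ± 0.10 on the log2 scale in Nat1-null cells (SE, adjusted p = 3.80e-08, limma) and by 1.53 ± 0.10 in Map3k3 cells with Dox against wild-type cells (SE, adjusted p = 1.18e-07). The difference between Map3k3 cells with and without Dox was 0.33 ± 0.10 (SE, adjusted p = 0.0241), which is under the fold minimum.

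Sycp3, a building block of the chromosome axis, had -0.35, -0.04 and -0.25 in Map3k3 cells with Dox, -0.85, -0.09 and -0.57 on the EGFP arrays, and -0.72, 0.01 and -0.67 in the Map3k3 line without Dox. It had -0.28, 0.00 and 0.14 in Nat1-null cells and 1.16, 1.11 and 0.98 in wild-type cells. Wild-type arrays again stood apart, and the 4 groups that lack Nat1 overlapped one another. Sycp3 fell by 1.13 ± 0.22 on the log2 scale in Nat1-null cells (SE, adjusted p = 6.54e-04, limma) and by 1.29 ± 0.22 in Map3k3 cells with Dox against wild-type cells (SE, adjusted p = 2.32e-04). Against no Dox it differed by 0.25 ± 0.22 (SE, adjusted p = 0.383). Sycp2, its partner in the axis, read between -6.79 and -5.33 over all arrays without being well above background on any.

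Hormad1, which binds unpaired chromosome axes, moved the other way. On its brightest probe it had 0.26, 0.25 and 0.29 in Map3k3 cells with Dox, 1.05, 1.17 and 0.72 on the EGFP arrays, and 0.76, 1.08 and 0.86 in the Map3k3 line without Dox. Nat1-null cells had 1.51, 1.59 and 1.32, and wild-type cells had -1.24, -0.88 and -0.93. Nat1-null cells were highest, the transgenic controls next, Map3k3 cells with Dox below them and wild-type cells lowest, and only EGFP cells and the line without Dox overlapped. Hormad1 rose by 2.49 ± 0.13 in Nat1-null cells against wild-type cells (SE, adjusted p = 2.15e-08, limma) and by 1.28 ± 0.13 in Map3k3 cells with Dox against wild-type cells (SE, adjusted p = 4.34e-06). It fell by 0.63 ± 0.13 on the log2 scale with Dox against no Dox (SE, adjusted p = 0.00260) and by 0.71 ± 0.13 against EGFP (SE, adjusted p = 0.00114). The other 2 probes of the gene differed by 2.44 and 1.88 between Nat1-null and wild-type cells. They differed by -0.52 and -0.50 between Map3k3 cells with Dox and without Dox, and by the same amounts against EGFP, and neither probe was called in those comparisons. With the mean of the probes the differences were -0.55 against no Dox and -0.58 against EGFP, under the fold minimum, and without the second array of the line without Dox the first was -0.54.

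Of the remaining members, Tex101 encodes a surface glycoprotein of germ cells. It had -3.82, -3.79 and -3.91 in Map3k3 cells with Dox, -3.80, -4.00 and -5.04 on the EGFP arrays, and -4.82, -4.45 and -4.15 in the Map3k3 line without Dox. Nat1-null cells had -5.16, -4.04 and -3.64, and wild-type cells had -0.81, -0.41 and -0.65. The gene was well above background on 1, 0, 2 and 1 of the 3 arrays in these groups lacking Nat1, in that order, and on all 3 wild-type arrays. The wild-type arrays stood more than 2 log2 units above all others. The gene was at least 9.55-fold lower in Nat1-null cells (adjusted p = 4.07e-06, limma) and at least 9.22-fold lower in Map3k3 cells with Dox against wild-type cells (adjusted p = 1.17e-05). These folds are bounds because some arrays of the lower group gave no signal well above background, and the p-values belong to a gene that entered the test by being high in wild-type cells.

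Stk31, a Tudor domain protein of germ cells, had the smallest range of group means among the tested members. It had -1.40, -1.53 and -1.46 in Map3k3 cells with Dox, -1.73, -1.50 and -1.35 on the EGFP arrays, and -1.65, -1.86 and -1.64 in the Map3k3 line without Dox. Nat1-null cells had -1.47, -1.52 and -1.23, and wild-type cells had -1.84, -1.63 and -1.71. In Nat1-null against wild-type cells it differed by 0.32 ± 0.11 (SE, adjusted p = 0.0256, limma), a 1.25-fold difference. In Map3k3 cells with Dox against EGFP it differed by 0.06 ± 0.11 (SE, adjusted p = 0.685).

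The wider meiotic machinery was described from lists of textbook genes. Where a list gene passed the background filter through a single group alone, the filter favoured a higher value there, and the list counts include such genes. All list counts are to be read beside the shares of all genes tested. In Nat1-null against wild-type cells, 17.3% of all genes rose and 20.5% fell. In Map3k3 cells with Dox, 12.3% rose and 5.59% fell against no Dox, and 12.4% rose and 5.67% fell against EGFP. Of 11 measured genes of the synaptonemal complex and meiotic cohesin, 1 rose and 4 fell in Nat1-null against wild-type cells, with a list median of -0.10 beside 0.07 for all genes. Stag3, a meiotic cohesin subunit, rose 4.33-fold. Syce3, a central element protein, fell 7.96-fold, Fkbp6 fell 4.05-fold and Hormad2 fell at least 2.91-fold. Hormad2 passed the background filter through the wild-type arrays alone, so the filter favoured its fall. With Map3k3, 2 rose and 2 fell of the 11 against no Dox, and 1 rose and 2 fell against EGFP. Tex12, another central element protein, rose at least 2.67-fold against no Dox and at least 2.52-fold against EGFP. Smc1b, the meiotic form of a cohesin subunit, fell 1.74-fold and 1.95-fold in the same order. Without the second array of Map3k3 cells with Dox, 2 rose and 1 fell against no Dox, and 2 rose and 2 fell against EGFP.

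Of 13 measured genes of meiotic recombination, 2 rose and 6 fell in Nat1-null cells, with a median of -0.51. Msh4, which stabilises crossover intermediates, rose 2.20-fold, and Tex11 rose 2.11-fold. Meiob, a single-strand DNA binding protein, fell at least 11.8-fold, Mei1 fell at least 3.60-fold and Mei4 was called lower with a bound of 1.24-fold. Meiob and Mei4 passed the background filter through the wild-type arrays alone, so the filter favoured their fall. With Map3k3, Msh4 fell at least 2.62-fold against no Dox and at least 2.43-fold against EGFP, and no gene of the list rose in either comparison. Mei1 fell at least 1.80-fold against EGFP, and without the second array of Map3k3 cells with Dox 1 gene of the list fell there.

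Of 9 measured genes of the piRNA pathway, 2 rose and 4 fell in Nat1-null cells. Rnf17 rose 2.96-fold and Piwil2, an Argonaute protein that binds piRNAs, rose 1.67-fold. Tdrkh fell at least 3.11-fold, Tdrd12 fell 10.8-fold and Tdrd5 fell 3.80-fold. Tdrkh, like Tex101, passed the background filter through the wild-type arrays alone, so the filter favoured its fall. With Map3k3, 2 rose and 1 fell against no Dox, and 1 rose and 2 fell against EGFP. Tdrd7 rose 8.02-fold against no Dox and 9.21-fold against EGFP, while Tdrd12 fell 1.99-fold and 2.03-fold. Piwil2 rose 1.51-fold against no Dox, and Gtsf1 fell 1.72-fold against EGFP. The median of the list was 0.19 against no Dox and 0.06 against EGFP, beside -0.07 and -0.09 for all genes. Without the second array of Map3k3 cells with Dox, 1 of the 9 rose and 1 fell in each of these comparisons.

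Stra8 was read beside 11 measured genes of meiotic entry and of the retinoic acid response. In Map3k3 cells with Dox, 6 of them rose and 1 fell against no Dox, and 4 rose and 1 fell against EGFP, with list medians of 0.59 and 0.47. Without the second array of Map3k3 cells with Dox, a fit added after seeing the data, 5 rose and 0 fell against no Dox, and 3 rose and 1 fell against EGFP. Cyp26a1, an enzyme that breaks down retinoic acid and is induced by it, rose at least 3.95-fold against no Dox and was not called against EGFP (log2 difference 1.66 ± 0.68, SE, adjusted p = 0.0683, limma). Rarb, a retinoic acid receptor, rose at least 2.49-fold against no Dox and at least 1.86-fold against EGFP. Cyp26b1 rose 4.40-fold against no Dox and at least 4.78-fold against EGFP. Rara, another receptor, fell 1.52-fold against no Dox, and Crabp1, which binds retinoic acid in the cytoplasm, fell 1.73-fold against EGFP. In Nat1-null against wild-type cells, 1 of the 11 rose and 7 fell, among them Cyp26a1 at least 4.05-fold lower, Crabp2 3.23-fold lower and Meioc 2.63-fold lower. The 7 include Rarb, called lower with a bound of 1.03-fold. Rarb passed the background filter through the wild-type arrays alone, so the filter favoured its fall.

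The second array of Map3k3 cells with Dox was not low for all of these genes. Cyp26a1 read -3.03, -2.13 and -3.27 on the 3 arrays of Map3k3 cells with Dox, so the second was the highest. Rarb read -3.28, -4.30 and -3.41, and the second array was the lowest and not well above background.

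**Figure D4:**
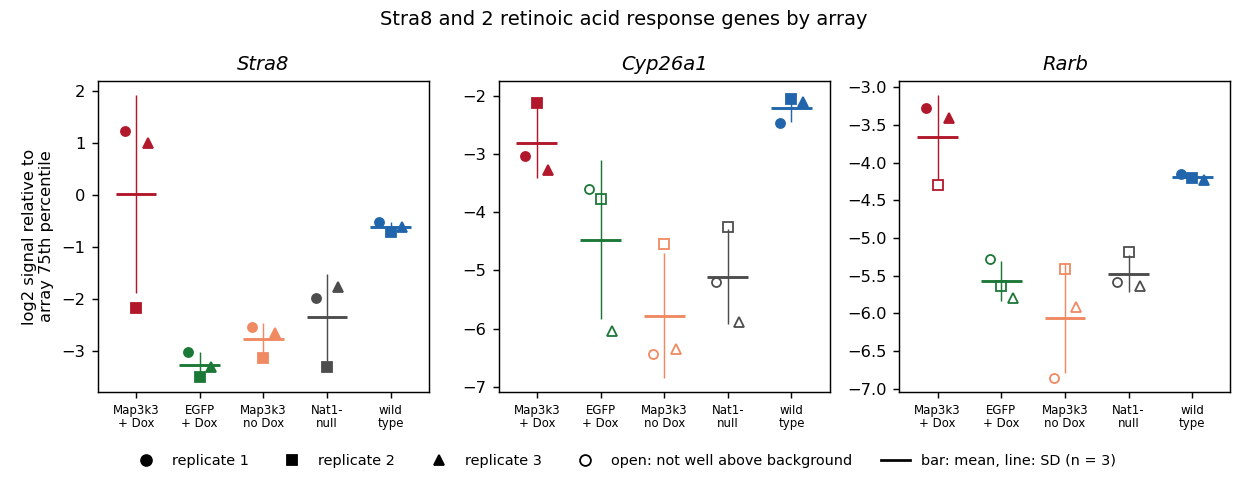
Signal of Stra8, Cyp26a1 and Rarb on each array (y axes, log2 relative to the array's 75th percentile, each panel with its own range), by group. Symbols mark the replicate number, open symbols are not well above background, and bars and lines are the mean and SD of 3 arrays. Map3k3 cells with Dox lie above EGFP cells and the line without Dox in all 3 panels, though the difference of Cyp26a1 from EGFP cells was not called, and the second array of that group is far below the other two for Stra8 (-2.17 against 1.24 and 1.00).

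A list of 15 other measured germline genes with promoters known to be methylated gave 1 gene that rose and 7 that fell in Nat1-null cells, with a median of -0.43. Rhox5, an X-linked homeobox gene, fell 60.1-fold, Tdrkh fell at least 3.11-fold and Tex19.1 fell 5.93-fold, while Dkkl1 rose 2.28-fold. Tdrkh is also in the piRNA list, and the background filter favoured its fall as told there. With Map3k3, Rhox5 rose 3.68-fold against no Dox and 3.69-fold against EGFP. Slc25a31 rose at least 2.31-fold against no Dox, and the other 13 were not called there. Against EGFP it was not called (log2 difference 0.51 ± 0.39, SE, adjusted p = 0.322, limma). Without the second array of Map3k3 cells with Dox, 1 gene of the list rose and 0 fell in each of these comparisons. The list median was 0.03 against no Dox and 0.20 against EGFP.

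**Figure D5:**
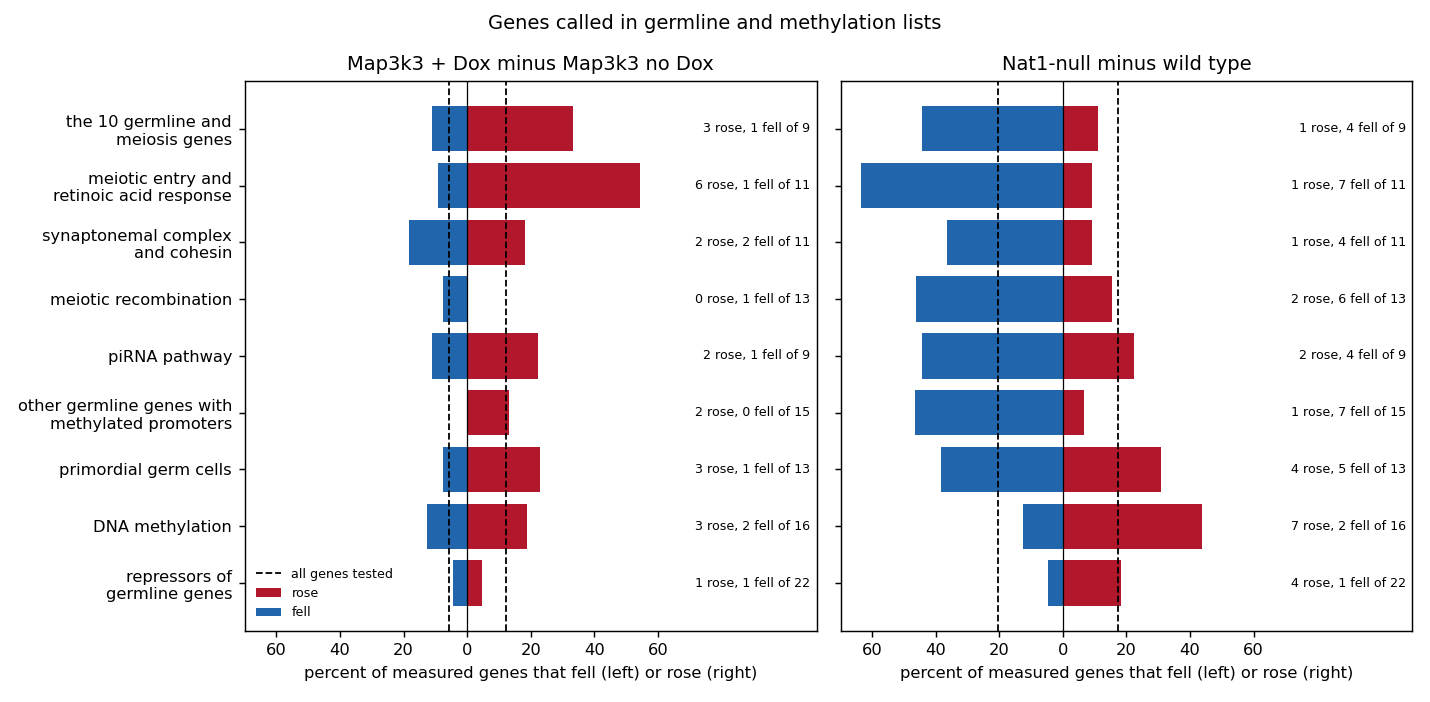
Share of the measured genes of 9 lists that rose (red, right) or fell (blue, left), with the counts printed beside the bars. Dashed lines give the share of all genes tested that rose or fell. In Map3k3 cells with Dox against no Dox, 6 of 11 genes of meiotic entry and retinoic acid response rose, and in Nat1-null against wild-type cells 7 of 15 other germline genes with methylated promoters fell. The 7 include Tdrkh, which passed the background filter through the wild-type arrays alone.

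The enzymes that write and read DNA methylation were all well above background in every group. In Nat1-null cells, 7 of 16 rose and 2 fell. The de novo methyltransferases Dnmt3a and Dnmt3b fell 8.53-fold and 4.73-fold, and Tet2, which oxidises methylcytosine, rose 4.47-fold. Uhrf1, which brings the maintenance enzyme to replicating DNA, rose (0.59 ± 0.07), while Dnmt1 itself (0.30 ± 0.06) and the cofactor Dnmt3l (-0.16 ± 0.23) were not called (log2 differences ± SE). With Map3k3, Dnmt3a rose 4.44-fold against no Dox and 4.09-fold against EGFP, and Dnmt3l fell 2.72-fold and 2.94-fold. Dnmt3b rose 1.53-fold against no Dox and was not called against EGFP. Of the members, Ddx4, Mael and Stra8 also rose in both of these comparisons, and Dazl rose against EGFP alone. Hormad1 fell in both, and Sycp1, Sycp3, Stk31 and Tex101 were called in neither. Whether the methylation enzymes bear on any member was not tested.

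Of 22 repressors of germline genes, 4 rose and 1 fell in Nat1-null cells. Zfp57 rose 3.42-fold, Wdr5 rose 2.80-fold and Yaf2, a subunit of Polycomb complexes, fell 3.26-fold. The core subunits E2f6, Mga, Max, Pcgf6 and L3mbtl2 and the histone methyltransferase Setdb1 were not called, with log2 differences between -0.32 and 0.53. With Map3k3, Yaf2 rose 2.71-fold and Wdr5 fell 1.63-fold against no Dox, and 2.58-fold and 1.59-fold against EGFP. Without the second array of Map3k3 cells with Dox, 2 of the 22 fell against EGFP, where 1 had. The same 6 genes were again not called in these comparisons, with values between -0.56 and 0.47.

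Markers of another cell type moved with the comparison to wild-type cells. Of 10 fibroblast and feeder markers, 4 were well above background on all 3 arrays in Nat1-null cells and 8 in wild-type cells, and 6 of the 8 tested fell in Nat1-null cells. The median log2 difference of these 8 was -3.63, beside 0.07 for all genes. The summed level of the markers ranged between 6.72 and 6.92 over Nat1-null arrays and between 7.46 and 7.51 over wild-type arrays (log2 relative to the 75th percentile). It adds linear signals and so mostly follows the brightest markers. Lum and Postn were well above background on no wild-type array, and Col1a2, Acta2, Lum and Dcn on no Nat1-null array. Dcn passed the background filter through the wild-type arrays alone, so the filter favoured a lower value in Nat1-null cells. Col1a2 and Acta2 were also well above background on no array of EGFP cells or of the line without Dox. In each group lacking Nat1, only 4 of the 10 markers were well above background on all 3 arrays. The filter could thus favour a lower value for more of the 8 tested than Dcn. The 6 that fell and the median of -3.63 are to be read with that limit. Whether the fibroblast and feeder markers bear on the lower Sycp1, Sycp3, Stra8 and Tex101 was not tested. In Map3k3 cells with Dox the summed level was 6.71 to 6.83, against 6.91 to 7.22 without Dox and 6.97 to 7.02 in EGFP cells. The list median of the log2 differences was 0.63 against no Dox and 0.43 against EGFP. Of the 8 tested markers, 3 rose against no Dox (Tagln 3.50-fold, Col1a1 3.01-fold and Acta2 at least 1.61-fold) and Thy1 fell 2.55-fold, and their part in the rise of Ddx4, Mael and Stra8 was not tested either.

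For each member whose group means spanned at least 1 log2 unit, the 3 genes with the smallest root mean square difference in the centred means of the 5 groups were picked from all genes tested. Ddx4 was closest to Tmem159 (0.032), Tmem80 (0.037) and Ttc39a (0.066), and Mael was closest to Ttc39a (0.043), Dnajb4 (0.053) and Tmem80 (0.059), so both members share 2 of the 3. Stra8 was closest to Ocln (0.14), Cxcl16 (0.16) and Tdrd7 (0.17). Sycp1 was closest to Zfp90 (0.047), Art3 (0.053) and Rab33a (0.073), and Sycp3 to Nhlrc1 (0.046), Fndc4 (0.049) and Ovol1 (0.056). No such genes are given for Tex101, whose means in the cells lacking Nat1 rest mostly on signals not well above background. Hormad1 was closest to Slc66a2 (0.085), Lockd (0.15) and Tspan32 (0.15), and Dazl to Dennd2a (0.050), Ehbp1l1 (0.065) and Rassf3 (0.066). These distances describe 5 group means and carry no test.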

How the data were processed

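RNA of 15 samples was hybridised to single-colour Agilent mouse arrays. Spots were read by the authors with Feature Extraction 11.5.1.1 (protocol GE1_1105_Oct12, grid build mm9), per the file headers. The deposited processed signal is an intensity with the background already subtracted, per the file headers. The authors' deposited normalized values are log2 and served as an alternative. No source used here tells their making; on each array their correlation with the values below was 1.

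Here log2 was taken, the spots of a probe were averaged without outlier spots, and each array was lowered by its own 75th percentile, taken over 55681 probes that are not controls. Symbols came from RefSeq accessions (28331 probes, 21368 symbols). Probes well above background on all 3 arrays of a group were kept, and the brightest stood for its gene (14443 genes). No probe used here carried the symbols of 3 list genes (Rnf212, Meiosin and Piwil4). One limma model (limma 3.58.1, R 4.3.3) with 5 group means and 10 residual degrees of freedom gave two-sided moderated tests with Benjamini-Hochberg adjustment over all genes; figures used matplotlib 3.10.9. The script was tested on simulated data. No spot was saturated, and the number of arrays limits the precision.

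Where the lower group was not well above background on all 3 arrays, the fold is a bound against the lowest signal well above background on the same array. All members were named with every probe, and of each list at most the 3 genes with the largest rise and the 3 with the largest fall by log2 difference among those called, plus Dnmt1, Dnmt3a, Dnmt3b, Dnmt3l, Uhrf1, E2f6, Mga, Max, Pcgf6, L3mbtl2 and Setdb1. Eif4g2 and, outside that rule, Map3k3 were looked up to check the labels. The members and the lists were chosen with earlier results of these data known.

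Samples of the same number deviated together from their group means in Map3k3 cells with Dox and without Dox (correlations 0.168, 0.338 and 0.258) and in Map3k3 and EGFP cells with Dox (0.106, 0.335 and 0.197), and more so in EGFP and Nat1-null cells (0.256, 0.576 and 0.389) and in the Map3k3 line without Dox and Nat1-null cells (0.287, 0.631 and 0.418). The first Map3k3 sample with Dox, however, correlated more with an EGFP sample of another number (0.192) than with that of its own (0.106). By these data alone the numbers pair the other samples named, so the replicate number as a block is given beside a result where it changes a call. The model itself holds no block. In Nat1-null and wild-type cells samples of the same number did not deviate together (-0.029, 0.0070 and 0.0059). Slides and slide rows, from the array positions in the file headers, were tried as blocks. All Map3k3 arrays, with and without Dox, were on slide 1, and all wild-type and Nat1-null arrays on slide 2. Of the EGFP arrays only the third was on slide 2, so the slide block rests on that array. The normexp alternative used median instead of mean signals, the mean not being a column of the files. 1 gene of the meiotic entry list is not reported here and was left out of its counts.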

Additional observations from a re-analysis of the deposited data

How the results depend on the processing

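The difference of each of the 9 members in each of 6 comparisons was recomputed under alternative settings, and none of these 54 results changed sign while past the threshold in either setting. Of the 19 called results, 10 kept their call under every alternative run, and 9 lost it under at least 1. Those kept include all of Sycp1 and Sycp3, those of Ddx4 and Mael against no Dox, and those of Tex101. The Tex101 calls are against wild-type cells, through which alone it passed the filter, so their being kept is not counted as support. The stricter filter, which asks for every array, left Tex101 out, so it had 17 alternatives where the other members had 18 in those comparisons. Of the 35 not called, 8 passed under at least 1 alternative. Leaving out 1 array at a time gave 4 to 7 called members for Nat1-null against wild-type cells, 4 to 4 for Map3k3 cells with Dox against no Dox, 4 to 5 against EGFP, 5 to 7 against wild-type cells, and 0 to 0 for the control lines against Nat1-null cells. The spread was pooled over all groups in these fits, and the counts include Tex101. With all arrays, 37.8%, 17.9%, 18.1% and 38.3% of all genes were called in the first 4 of these comparisons, in that order. Shares for the leave-out and slide row fits are not given here, so their counts show nothing particular to the members. Without a fold minimum, 8 of the 9 members passed in Nat1-null against wild-type cells, where 9109 of all 14443 genes did. Within slide row 1, a split chosen after seeing the data, 1 member was called in Map3k3 against EGFP cells, and within slide row 2 it was 3; the first sets 1 Map3k3 array against 1 EGFP array, with the spread taken from the other groups, and the second 2 against 2. The calls of Ddx4 (0.84) and Mael (0.99) against EGFP were lost in that first fit alone. With the replicate number as a block, 5 members were called in Map3k3 cells with Dox against no Dox, the fifth being Dazl (0.82, adjusted p = 0.00160), and the block changed no other call of a member. The Stra8 difference between Nat1-null and wild-type cells was also not called with quantile normalization (adjusted p = 0.0515), normexp (0.0537), no background filter (0.0715) or the slide as a block (0.0614). Over all genes, dropping the fold minimum raised the calls to 9109 in Nat1-null against wild-type cells (5466 with it), 5752 in Map3k3 cells with Dox against no Dox (2580), 5987 against EGFP (2610) and 8913 against wild-type cells (5530). The Map3k3 line without Dox against Nat1-null cells had 0 calls, and 40 with the replicate block, 12 with the slide block, 10 with the stricter filter, 3 with normexp and 2 with the slide row block. EGFP cells against Nat1-null cells had 1, and 0 to 26 over the alternatives. The cause of these shifts was not tested. Signal over background limits Sycp2 in all groups and Tex101 in the 4 groups that lack Nat1.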

Other observations

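Genes of primordial germ cells, the embryonic founders of the germline, did not move as one. Of 13 measured, 4 rose and 5 fell in Nat1-null against wild-type cells. Prdm14, a regulator that keeps methyltransferases low in germ cell precursors, rose 5.41-fold, Kit rose 2.60-fold and Tfap2a rose 2.57-fold. Dppa3, also called Stella, fell 42.3-fold, Ifitm1 fell 2.59-fold and Tfap2c fell 2.08-fold. In Map3k3 cells with Dox, 3 rose and 1 fell against no Dox, and 2 rose and 1 fell against EGFP. Sox17 rose at least 4.52-fold against no Dox and at least 3.38-fold against EGFP, Gm1673 rose 2.88-fold and 2.67-fold, and Ifitm1 fell 2.13-fold and 2.29-fold in the same order. Sox17 passed the background filter through Map3k3 cells with Dox alone, so the filter favoured its rise. Tfap2a rose 1.92-fold in EGFP cells with Dox against Nat1-null cells, the 1 gene called over all genes in that comparison.

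Of 6 measured spermatogonial genes, Kit rose and Sohlh1 fell at least 2.98-fold in Nat1-null against wild-type cells, and Zbtb16 fell at least 2.39-fold against no Dox and at least 2.49-fold against EGFP in Map3k3 cells with Dox. Sohlh1 was well above background on no array of Nat1-null or EGFP cells, so the filter may have favoured its fall.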
